A study of Mus musculus with 24 samples.

Results

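Retinoic acid, a signalling molecule made from vitamin A, tells germ cells of the fetal gonad to enter meiosis, and in the fetal testis it is broken down before it can do so. Enzymes of the ALDH1A family make it from retinaldehyde, enzymes of the CYP26 family oxidise it to inactive products, and the nuclear receptors RARα, RARβ and RARγ carry its signal to target genes. CRABP1 holds it in the cytoplasm. *Cyp26b1* is best known here as the enzyme that guards germ cells of the testis from meiosis. H3K4me3 is a histone mark of promoters that are active or ready to be used, H3K27me3 is laid down by Polycomb group proteins at silenced genes, and a promoter with both marks is called bivalent.

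The 10 genes described were given as a list: *Aldh1a1*, *Aldh1a2*, *Aldh1a3*, *Cyp26a1*, *Cyp26b1*, *Cyp26c1*, *Rara*, *Rarb*, *Rarg* and *Crabp1*, among 22350 protein-coding genes of the annotation. The study profiled H3, H3K4me3 and H3K27me3 by ChIP-seq in 4 populations of the supporting cell lineage of the mouse gonad, with 2 replicates each and 24 samples in all. XY and XX progenitors were sorted at E10.5 from embryos with the SF1-eGFP reporter, Sertoli cells, the supporting cells of the testis, at E13.5 from XY Sox9-CFP embryos, and pregranulosa cells, their counterparts in the ovary, at E13.5 from XX TESM-CFP embryos. The strain background of all samples was C57BL/6 x CD1, gonads were pooled, and a population was whatever cells carried the fluorescent reporter. The authors provided 8 peak lists on mm9, 1 per population for either mark, and each list joins both replicates.

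The lists carry positions and no strength, since every peak has the same score. No spread between replicates can be taken from joined replicates, so values of populations are set side by side without a p-value, and a missing region means only that no region was called. The lists of XY progenitors rest on 10162534 tags for H3K4me3 and 6470151 for H3K27me3, and those of XX progenitors on 49254553 and 33185400. Those of Sertoli cells rest on 31104760 and 44446456, while the depth of the pregranulosa lists is unknown. Depth thus differs together with population, and its part in any difference between populations was not tested. The pregranulosa H3K27me3 list held 12609 peaks, none overlapping. Those of XY progenitors, XX progenitors and Sertoli cells held 36469, 74001 and 74154, which joined into 9693, 9309 and 13313 regions. The lists thus differ in form, and the part of this in region widths and body cover was not tested. In a sorted population, marks of different cells or of the 2 alleles cannot be told apart. Of 6 Sertoli marker genes, 0 had H3K27me3 at the start in the Sertoli lists and 5 in the pregranulosa lists, and of 6 pregranulosa marker genes, 6 had it in the Sertoli lists and 3 in the pregranulosa lists. In XY and in XX progenitors it was at 4 of the 6 Sertoli and 6 of the 6 pregranulosa markers. *Foxl2*, *Fst* and *Lef1* were the pregranulosa markers with H3K27me3 within 2 kb of the start in the pregranulosa list. The study reports that pregranulosa cells lose it at the start itself of *Foxl2* and *Lef1*. At *Foxl2*, by its account, a window of this kind does not show the loss. The 5 markers shared by gonadal somatic cells were *Wt1*, *Gata4*, *Nr5a1*, *Emx2* and *Lhx9*. H3K27me3 was at the start of 5 of them in XY progenitors, 5 in XX progenitors, 2 in Sertoli cells and 0 in pregranulosa cells. Markers of other cells were read too, and their part in the results was not tested. Of the 4 germ cell markers *Pou5f1*, *Ddx4*, *Dazl* and *Dppa3*, H3K4me3 was at 1, 2, 3 and 2 starts in XY progenitors, XX progenitors, Sertoli cells and pregranulosa cells, and H3K27me3 at 2, 2, 2 and 1. *Ddx4* had neither mark in any population. In the same order H3K4me3 was at 1, 1, 1 and 2 of 4 endothelial markers and at 1, 3, 2 and 3 of 4 Leydig cell markers, and 3 of 3 mesonephric and kidney markers were bivalent in all 4.

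Each gene was read in a window of 2 kb on either side of its annotated start, 4001 bp in all, and over its whole body from start to end. A region that shared 1 bp or more with a window marked it. Of the 10 genes, 7 had H3K27me3 at the start in each of the 4 populations, against 23.1%, 24.8%, 23.6% and 23.7% of all protein-coding genes in XY progenitor, XX progenitor, Sertoli and pregranulosa cells. The same 6 genes were bivalent in all 4 populations, against 13.7% of protein-coding genes: *Aldh1a2*, *Aldh1a3*, *Cyp26a1*, *Cyp26c1*, *Rarg* and *Crabp1*. By population, 6 of the 10 were bivalent each time, against 20.4%, 22.4%, 18.7% and 20.4%. *Cyp26a1* and *Cyp26c1* lie next to each other under 1 region, so the 10 genes make up 9 loci. H3K4me3 was present at 7 starts in XY progenitors and at 8 in the others, where the background was 64.2%, 66.0%, 64.9% and 66.4%. At these gene starts, 9 of the 10 genes had 1 class throughout (77.4% of protein-coding genes did). *Rarb* is counted there with neither mark at its gene start, while its transcript start Rarb-202 changed class between E10.5 and E13.5, as described below. None of the 10 starts had a mark in Sertoli cells that was missing in pregranulosa cells, or the reverse. Over all protein-coding genes these shares were small as well, with H3K4me3 in the Sertoli list alone at 1.07% and in the pregranulosa list alone at 2.53%, and H3K27me3 at 4.90% and 5.02%. H3K27me3 lay somewhere on the gene body at 7, 7, 8 and 8 of the 10 genes, against 25.5%, 27.3%, 26.4% and 26.6%. What differed among the populations lay at second transcript starts, in the width of regions, in further regions called in some lists only, and at *Aldh1a1*.

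**Figure D1:**
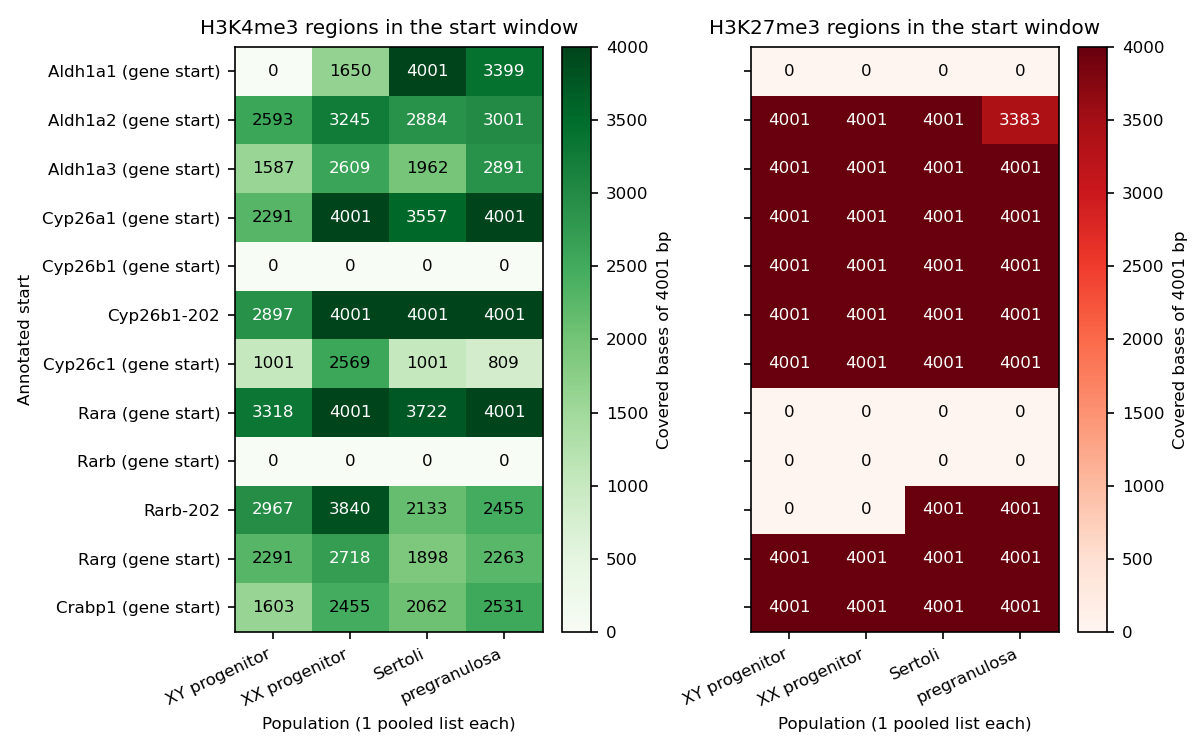
Bases of each 4001 bp start window covered by H3K4me3 (left) and H3K27me3 (right) regions, for the 10 gene starts and for 2 further transcript starts, in the 4 populations with 1 pooled list each. H3K27me3 filled or nearly filled the windows of 7 gene starts and of Cyp26b1-202 everywhere, was at 0 at *Aldh1a1*, *Rara* and the *Rarb* gene start, and stood at Rarb-202 in Sertoli and pregranulosa cells alone.

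Among the enzymes that make retinoic acid, *Aldh1a1* (ENSMUSG00000053279.6, chr19:20676451-20717952, plus strand) had no H3K27me3 in any list, at its start or on its body. Its H3K4me3 cover of the start window was 0 bp in XY progenitors, 1650 bp in XX progenitors, 4001 bp in Sertoli cells and 3399 bp in pregranulosa cells. The region at the start was 1650 bp wide in XX progenitors, 8353 bp in Sertoli cells and 6950 bp in pregranulosa cells. The Sertoli region was wider than 99.7% of the regions of its list and the pregranulosa region wider than 99% of its own. Both ran from before the start into the first intron, with 117 exonic and 6030 intronic bases of the gene in Sertoli cells. On the gene body H3K4me3 covered 0%, 3.98%, 23.5% and 15.8% in XY progenitor, XX progenitor, Sertoli and pregranulosa cells, and 3 further regions lay downstream in Sertoli cells against 1 in pregranulosa cells. H3K4me3 missing in XY progenitors and present in the other populations was seen at 1 of the 10 genes and at 1.23% of protein-coding genes, and the XY progenitor list had the fewest H3K4me3 tags of the 3 with known depth.

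The window of *Aldh1a1* was poor in CpG, with an observed to expected ratio of 0.132 (10.8% of protein-coding windows had less), against a median of 0.366 over all 22350 windows. The 200 bases before its start are shown because the H3K4me3 regions of Sertoli and pregranulosa cells run over them. They hold 1 CpG, in capitals, and stand on mm9 at chr19:20676251-20676450, plus strand, outside the exons of the gene.
Aldh1a1 upstream: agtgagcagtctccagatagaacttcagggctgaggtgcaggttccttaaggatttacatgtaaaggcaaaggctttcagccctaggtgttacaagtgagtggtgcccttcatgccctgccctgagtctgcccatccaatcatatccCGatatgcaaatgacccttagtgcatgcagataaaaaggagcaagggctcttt

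*Aldh1a2* (ENSMUSG00000013584.5, chr9:71063596-71144050, plus strand), the enzyme that makes most retinoic acid of the early embryo, was bivalent in every population. H3K27me3 filled the window in 3 populations and covered 3383 bp of it in pregranulosa cells, the only one of the 7 marked windows that was not full there. The region was 10571 bp wide in XY progenitors, 7563 bp in XX progenitors, 10661 bp in Sertoli cells and 6370 bp in pregranulosa cells, and it ended 4530, 3574, 4954 and 1382 bp after the start. H3K27me3 thus reached less far into the gene in both XX populations than in both XY populations, with 4.44% and 1.72% of the body covered against 5.63% and 6.16%. H3K4me3 at the start was 4733, 6687, 3440 and 6565 bp wide in the same order. The narrowest region was that of Sertoli cells, where a second region of 1253 bp followed 2926 bp after the start. The window had a CpG ratio of 0.702, above 95.4% of protein-coding windows.

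*Aldh1a3* (ENSMUSG00000015134.8, chr7:73535778-73572403, minus strand), the third enzyme of the family, showed the largest difference between Sertoli and pregranulosa cells of the 10 genes in its gene body. H3K27me3 covered 27.9% of the body in XY progenitors, 23.4% in XX progenitors, 80.8% in Sertoli cells and 22.6% in pregranulosa cells. That of Sertoli cells stands apart, and the other 3 lie within 6 percentage points of each other. In Sertoli cells the region at the start ran on to 16337 bp after it, against 10237, 8578 and 8281 bp in the other populations, and a second region of 14373 bp began 23381 bp after the start and passed the end of the gene by 1128 bp. Only 1 of the 10 genes had a body cover more than 25 percentage points higher in Sertoli than in pregranulosa cells, against 4.94% of protein-coding genes, and 0 had the reverse, against 3.74%. The Sertoli list holds more H3K27me3 regions than any other, 13313. The 2 regions of *Aldh1a3* were wider than 90.9% and 80% of that list. The gap between the 2 Sertoli regions held H3K4me3, in a region of 2268 bp over the start of Aldh1a3-004, an internal transcript. H3K4me3 stood there also in XX progenitors (1289 bp) and pregranulosa cells (2946 bp).

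Of the enzymes that break retinoic acid down, *Cyp26b1* (ENSMUSG00000063415.5, chr6:84521938-84543740, minus strand) had a pattern that few genes shared. H3K27me3 filled the window of its gene start in all 4 populations and H3K4me3 covered 0 bp of it, a class that 170 of 22350 protein-coding genes (0.761%) held throughout. The H3K4me3 of the gene lay further in. A region of 6305 bp in XY progenitors, 8209 bp in XX progenitors, 10165 bp in Sertoli cells and 8358 bp in pregranulosa cells began 4212, 2910, 2958 and 2888 bp after the gene start, and each was wider than at least 99.5% of its list. It covered the start of a second transcript, Cyp26b1-202, 5108 bp downstream. At that start 2897 bp of the window had H3K4me3 in XY progenitors and all 4001 bp in the other populations, and H3K27me3 filled the window everywhere, so Cyp26b1-202 was bivalent in all 4. The gene therefore counts as bivalent or as H3K27me3-only according to which start is read. RefSeq places its start 64 bp before the gene start used here.

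H3K27me3 covered the whole 21803 bp of *Cyp26b1* in both progenitor populations. In Sertoli cells it covered 52.5% of the body and in pregranulosa cells 62.5%. The region was 25561 bp wide in XY progenitors and 28050 bp in XX progenitors and ended past the gene, by 777 and 2207 bp. It was 16970 bp wide in Sertoli cells and 16575 bp in pregranulosa cells, and stopped 10365 and 8178 bp short of the gene end. The part without H3K27me3 at E13.5 is the 3′ part of the gene, in both sexes. A body cover lower by more than 25 percentage points at E13.5 than in the progenitor of the same sex, in both sexes, was found at 1 of the 10 genes and at 0.828% of protein-coding genes. In the XY pair the lower cover was in the list with more tags, that of Sertoli cells. That list also needed more tags for a peak, 89 against 14 in XY progenitors. The part of depth and threshold in the lower cover was not tested. The body cover of Sertoli and pregranulosa cells was 10 percentage points apart.

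The 2 starts of *Cyp26b1* differ in sequence as well. The window of the gene start had a CpG ratio of 0.155 (15.2% of protein-coding windows had less) and that of Cyp26b1-202 a ratio of 0.67 (93.4% had less). The 200 bases before the RefSeq start and before Cyp26b1-202 are shown to set the start without H3K4me3 beside the one with it. They hold 7 and 20 CpG, in capitals, both outside the exons of the gene, at chr6:84543805-84544004 and chr6:84538633-84538832, minus strand, mm9.
Cyp26b1 before the RefSeq start: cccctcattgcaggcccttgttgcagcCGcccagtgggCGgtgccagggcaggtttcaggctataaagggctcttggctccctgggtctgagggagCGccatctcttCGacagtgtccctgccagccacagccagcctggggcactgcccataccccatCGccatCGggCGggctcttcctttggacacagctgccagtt
Cyp26b1-202 upstream: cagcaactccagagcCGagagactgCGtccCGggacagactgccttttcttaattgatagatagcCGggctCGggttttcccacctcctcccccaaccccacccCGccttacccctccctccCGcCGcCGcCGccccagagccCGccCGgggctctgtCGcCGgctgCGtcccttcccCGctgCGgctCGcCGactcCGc

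The 5 protein-coding genes nearest to *Cyp26b1*, by Euclidean distance over 16 covered fractions (8 lists, start window and gene body), were *Synpo2l*, *Ebi3*, *Hapln2*, *Sp6* and *Prss16*, at distances from 0.566 to 0.659. The first 4 were H3K27me3-only at the start in all 4 populations, and *Prss16* was bivalent. *Synpo2l* had lower H3K27me3 body cover at E13.5, with 87.3% and 83.7% in progenitors, 74.8% in Sertoli cells and 37.8% in pregranulosa cells, while the other 4 were at 100% throughout.

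*Cyp26c1* (ENSMUSG00000062432.4, chr19:37760071-37767888, plus strand) and *Cyp26a1* (ENSMUSG00000024987.5, chr19:37772298-37776018, plus strand) are neighbours, with 4409 bp between them. A single H3K27me3 region lay over both, 28272 bp wide in XY progenitors, 28084 bp in XX progenitors, 27643 bp in Sertoli cells and 35653 bp in pregranulosa cells. It covered 100% of both genes in every population and reached the neighbouring gene *Exoc6*. The pregranulosa region was wider on both sides, from 11916 bp before the *Cyp26c1* start to 23736 bp after it, while the other 3 began 6727 to 7232 bp before the start. At *Cyp26a1* H3K4me3 covered 2291 bp of the window in XY progenitors, in 2 narrow regions that leave out the start itself, and 4001, 3557 and 4001 bp in the others, in 1 region of 4709, 3557 and 4218 bp over the start. At *Cyp26c1* it covered 1001, 2569, 1001 and 809 bp, and no population had it over the start base. A width of 1001 bp is that of a single window at the peak size of 1000 bp set for H3K4me3.

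The window of *Cyp26a1*, an enzyme known to be induced by its own substrate, held 2 motifs of the kind that retinoic acid receptors bind. The motif searched was a direct repeat with a spacer of 5 bases between half-sites, on both strands, where a half-site was AGGTCA or GGGTCA or AGTTCA or GGTTCA and any letters could fill the spacer. It was present in 1.25% of all protein-coding windows, and *Cyp26a1* was the only one of the 10 gene starts with a match. A repeat with a spacer of 2 bases was present in 3.48% of all windows and at none of the starts of the 10 genes. The matches stood 1899 to 1883 bp and 32 to 16 bp before the start, under H3K27me3 in all 4 populations, and the nearer one is shown in capitals within chr19:37772098-37772297 of mm9, plus strand, where it lies on the other strand. The XY progenitor H3K4me3 region ended 61 bp before the start and left this match uncovered, while those of the other populations covered it.
Cyp26a1 upstream: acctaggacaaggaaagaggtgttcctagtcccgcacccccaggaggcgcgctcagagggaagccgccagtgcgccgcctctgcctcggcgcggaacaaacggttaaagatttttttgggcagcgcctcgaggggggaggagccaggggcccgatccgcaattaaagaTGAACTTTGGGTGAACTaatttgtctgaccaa

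The receptors differed from each other. *Rara* (ENSMUSG00000037992.9, chr11:98789132-98836256, plus strand) had no H3K27me3 at any of its annotated starts or on its body in any population. H3K4me3 covered 3318 bp of the start window in XY progenitors, 4001 bp in XX progenitors, 3722 bp in Sertoli cells and 4001 bp in pregranulosa cells, and 52%, 64.1%, 58.6% and 55% of the gene body. It was H3K4me3-only throughout, as were 36.8% of protein-coding genes, and it was the 1 receptor gene of that class at its gene start.

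*Rarg* (ENSMUSG00000001288.8, chr15:102065369-102087948, minus strand) was bivalent at every annotated start in every population. Its H3K27me3 body cover was 50.9% in XY progenitors, 71.4% in XX progenitors, 92.1% in Sertoli cells and 81.1% in pregranulosa cells. In XY progenitors it lay in 2 regions of 9323 and 7901 bp with a gap between them, and in the others in 1 region of 21274, 25884 and 24233 bp, with a second Sertoli region over the last 940 bp of the gene. The gap in XY progenitors leaves all but 467 bp of the Rarg-003 window free, 7171 bp after the gene start, where H3K4me3 covered 2098 bp. H3K4me3 had a region of 1898 to 2718 bp at the gene start, a wider one of 4614 to 6053 bp over the start of Rarg-002, 11017 bp downstream, and a narrow one of 1001 to 1715 bp at the 3′ end in every population. XX progenitors and pregranulosa cells each had 1 more, of 1297 and 1001 bp, beside the wide one.

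*Rarb* (ENSMUSG00000017491.7, chr14:17263356-17651381, minus strand) is the longest of the 10 genes, 388026 bp, and its gene start had neither mark in any population, as in 26.2% of protein-coding genes. RefSeq places its start 243391 bp further in, beside the GENCODE transcript Rarb-202 at 243395 bp. There H3K4me3 covered 2967 bp of the window in XY progenitors, 3840 bp in XX progenitors, 2133 bp in Sertoli cells and 2455 bp in pregranulosa cells. H3K27me3 covered 0 bp in both progenitor populations and the whole 4001 bp in Sertoli and pregranulosa cells, in regions of 13874 and 15851 bp. The start was H3K4me3-only at E10.5 and bivalent at E13.5 in both sexes. A transcript start with this pattern was found in 1 of the 10 genes and in 1.19% of protein-coding genes. The H3K4me3 region over the start was 5544 bp in XY progenitors and 6176 bp in XX progenitors, and 2133 and 2399 bp at E13.5. In pregranulosa cells a separate H3K4me3 region of 1255 bp followed downstream. Wider H3K4me3 and absent H3K27me3 fell together at E10.5, so their link cannot be told apart from stage in these 4 lists.

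H3K27me3 stood at further places inside *Rarb* at E13.5. A region of 6253 bp in Sertoli cells and 8489 bp in pregranulosa cells lay 80404 and 76280 bp after the gene start, and a region of 15765 bp in pregranulosa cells lay 207703 bp after it. Together H3K27me3 covered 5.19% of the gene in Sertoli cells and 10.3% in pregranulosa cells, against 0% in both progenitor populations. The XX progenitor list was deeper than that of XY progenitors, and neither held a region there. What part depth had in this was not tested.

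The Rarb-202 start also carries the receptor motif, 57 to 41 bp before it, on the strand of the gene. Retinoic acid is known to induce *Rarb* through its own receptors, and a sequence of this kind before this start is a textbook example. The match, in capitals, lay under H3K4me3 in all 4 populations and under H3K27me3 at E13.5. The 200 bases before the start are at chr14:17407987-17408186 of mm9, minus strand, in an intron of the longer transcripts. The window of Rarb-202 had a CpG ratio of 0.413 and that of the gene start 0.077, which is above 1.77% of protein-coding windows.
Rarb-202 upstream: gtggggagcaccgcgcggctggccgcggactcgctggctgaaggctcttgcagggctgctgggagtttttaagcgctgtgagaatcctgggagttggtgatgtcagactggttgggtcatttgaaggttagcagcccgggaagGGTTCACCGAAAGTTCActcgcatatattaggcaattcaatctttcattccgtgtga
The other matches near annotated starts of the 10 genes were at Rara-004 (404 to 388 bp before it) and Rarg-003 (487 to 471 bp before it). The first start was H3K4me3-only and the second bivalent in every population.

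*Crabp1* (ENSMUSG00000032291.8, chr9:54612555-54620917, plus strand), which encodes the cytoplasmic binding protein, was bivalent in all 4 populations. H3K27me3 filled its window everywhere and covered 66.4% of its body in XY progenitors, 83% in XX progenitors and 100% in both Sertoli and pregranulosa cells. The region was 9091, 11795, 26116 and 14812 bp wide in the same order. The Sertoli region began 16456 bp before the start, against 3537 to 6071 bp in the others. H3K4me3 covered 1603, 2455, 2062 and 2531 bp of the window, and a second H3K4me3 region inside the gene, of 1299, 2058 and 1287 bp, was in every list but that of Sertoli cells.

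**Figure D2:**
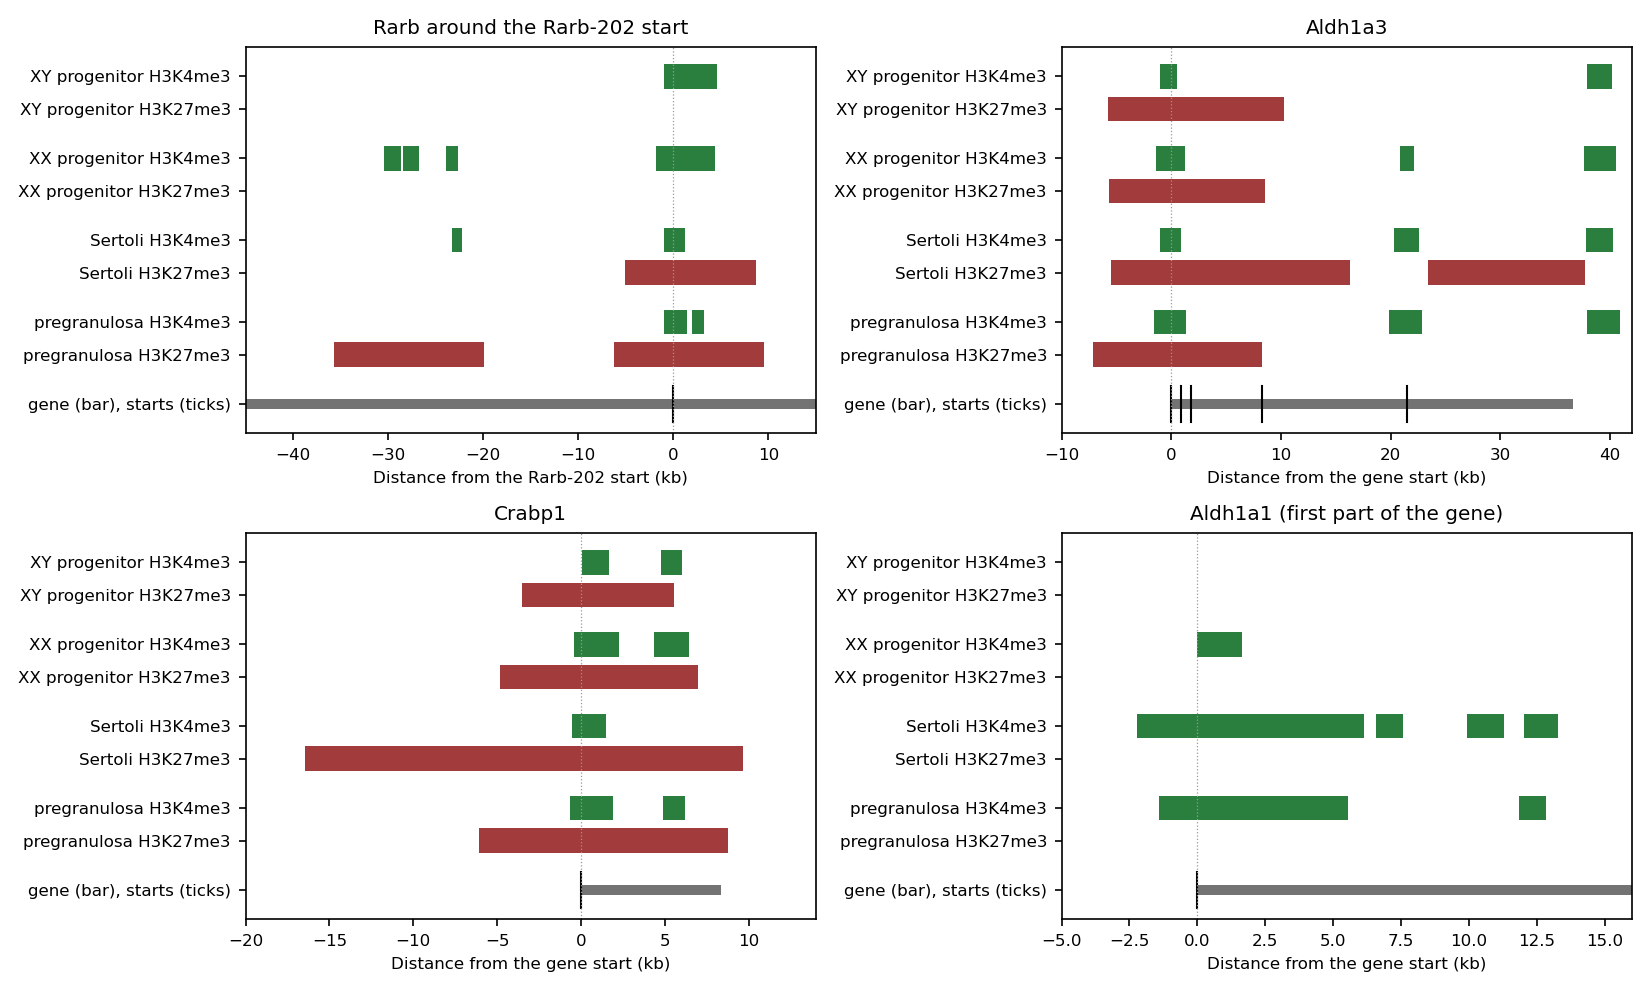
H3K4me3 (green) and H3K27me3 (red) regions of each population around the Rarb-202 start, along *Aldh1a3* and *Crabp1*, and along the first part of *Aldh1a1*, by distance in kb from the start named on each axis. H3K27me3 regions stand at Rarb-202 in Sertoli and pregranulosa cells and in neither progenitor, *Aldh1a3* has a second region of 14373 bp in Sertoli cells, *Crabp1* has its widest region of 26116 bp there, and *Aldh1a1* has H3K4me3 regions of 8353 and 6950 bp in Sertoli and pregranulosa cells and no H3K27me3.

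Over the gene bodies, 3 of the 10 genes (*Aldh1a3*, *Rarg* and *Crabp1*) had H3K27me3 cover more than 25 percentage points higher in Sertoli cells than in XY progenitors, against 6.43% of protein-coding genes, and 1 (*Cyp26b1*) had it that much lower, against 1.99%. Between XX progenitor and pregranulosa cells the count was 0 higher, against 2.61%, and 1 lower (*Cyp26b1*), against 2.67%. The XY progenitor list had the fewest H3K27me3 tags of the 3 with known depth. *Rarg* and *Crabp1* were also 9.71 and 17.0 points higher in pregranulosa than in XX progenitors. The median body cover of the 7 genes with H3K27me3 at the start was 66.4%, 83%, 92.1% and 81.1% in XY progenitor, XX progenitor, Sertoli and pregranulosa cells, beside medians of 19.3%, 27.1%, 38.9% and 34.6% over all protein-coding genes with the mark at the start. Short genes are covered more easily by a region of a given width, and *Cyp26a1*, *Cyp26c1* and *Crabp1* are 3721, 7818 and 8363 bp long.

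**Figure D3:**
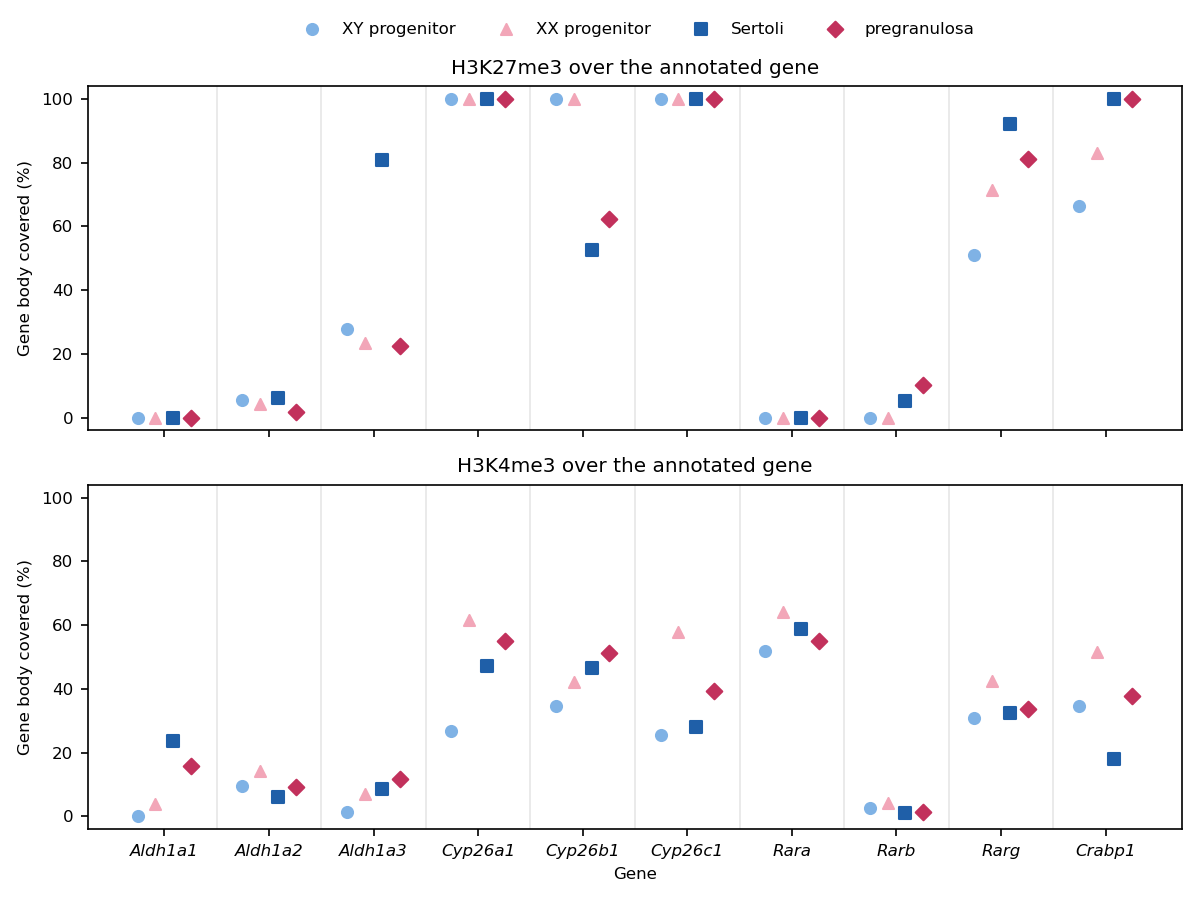
Percent of each annotated gene covered by H3K27me3 (top) and H3K4me3 (bottom) regions, with 1 point for each population. *Cyp26b1* is at 100% in both progenitors and at 52.5% and 62.5% at E13.5, *Aldh1a3* is at 80.8% in Sertoli cells and at 22.6% to 27.9% elsewhere, and *Aldh1a1* and *Rara* have no H3K27me3.

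A list of 28 other retinoid genes was read in the same way. H3K27me3 was at the start of 9 of the 28 in XY progenitors, 8 in XX progenitors, 12 in Sertoli cells and 13 in pregranulosa cells, beside the background shares of H3K27me3 given above. Of the 11 genes of retinol storage, transport and oxidation, 3, 3, 4 and 3 had it. Of the 6 receptor partners and coregulators 2, 2, 1 and 2 had it, and of 9 genes known to respond to retinoic acid 3, 3, 6 and 6. The pattern seen at Rarb-202, H3K4me3-only in both progenitor populations and bivalent in both E13.5 populations, was present at the gene start of 4 of the 28 and of 0.931% of protein-coding genes. These 4, singled out after their values were seen, were *Crabp2*, which hands retinoic acid to the receptors, *Nr2f1* and *Nr2f2*, which encode the COUP transcription factors, and *Tgm2*, which encodes a transglutaminase. At *Crabp2* H3K27me3 covered 0 bp of the window in both progenitor populations and 4001 bp in Sertoli and pregranulosa cells, with H3K4me3 at 3893, 4001, 3863 and 3776 bp. *Nr2f1* had the same H3K27me3 values, and 100% of its body was covered at E13.5 in both sexes. At *Tgm2* it covered 4001 bp in Sertoli cells and 2281 bp in pregranulosa cells. The opposite pattern, bivalent in both progenitor populations and H3K4me3-only at E13.5, was at 0 of the 28 and at 446 of the 22350 protein-coding genes.

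H3K27me3 at the start differed between Sertoli and pregranulosa cells at 3 of the 28 genes and at 0 of the 10. *Dhrs3*, whose product turns retinaldehyde back to retinol, had it in Sertoli cells (3751 bp) and not in pregranulosa cells, a direction found at 4.90% of protein-coding genes. *Rxra*, the common partner of the receptors, and *Fabp5*, another carrier of retinoic acid, had it in pregranulosa cells (1810 and 3973 bp) and not in Sertoli cells, a direction found at 5.02%. Both calls of the pregranulosa list were lost with the widest 75% of regions or with every list reduced to the shortest of its mark, that of *Rxra* also when the start base itself had to be covered, while *Dhrs3* kept its call under all 3. These 3 were not of 1 class before: *Dhrs3* had H3K27me3 in XX progenitors alone, *Rxra* in both progenitor populations and *Fabp5* in XY progenitors alone. *Stra8*, the gene that retinoic acid turns on in germ cells at the start of meiosis, had neither mark at its start in both progenitors and in Sertoli cells. In pregranulosa cells its window held a single H3K4me3 region of 1001 bp. That call was lost under all 3 of these settings: the widest 75% of regions, every list reduced to the shortest of its mark, and the start base itself covered. H3K27me3 was not called at *Stra8* in any of these supporting cell populations.

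**Figure D4:**
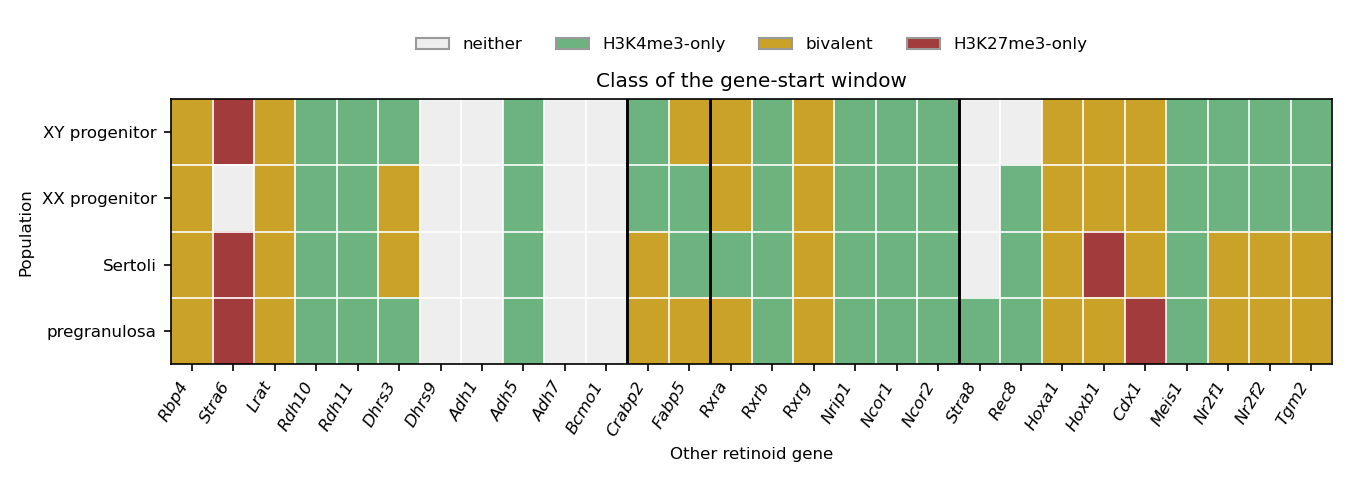
Class of the gene-start window of 28 other retinoid genes (columns, grouped by role between black lines, in the order storage, transport and oxidation, binding proteins, receptor partners and coregulators, genes that respond to retinoic acid) in the 4 populations (rows). Windows with H3K27me3 are gold (bivalent) or red, and number 9, 8, 12 and 13 from top to bottom.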

How the data were processed

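H3, H3K4me3 and H3K27me3 were profiled by native ChIP-seq with micrococcal nuclease in 24 samples, 2 replicates of each in 4 FACS-sorted populations, with Drosophila S2 carrier chromatin. The authors used Bowtie for alignment to mm9 and HOMER findPeaks (histone style, H3 as input) for peaks, and the labels also name Trim Galore and SAMtools, without versions. The deposited files are 8 peak lists that join both replicates, with 0-based start and end positions and a score column that the authors left at 1 for every peak. The headers of 6 lists give peak sizes of 1000 bp (H3K4me3) and 5000 bp (H3K27me3), a required fold of 4 against both input and surroundings, and 0.0001 as the Poisson p-value. The pregranulosa lists have no header.

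Overlapping peaks of a list were joined into regions. Starts, ends and transcripts came from GENCODE M1 (NCBIM37, the same assembly as mm9), and positions count from 1. The background was 22350 protein-coding genes, without 17 on chromosome Y. Background shares had exact (Clopper-Pearson) 95% intervals, which cover counting error only. CpG ratios and motifs were read from the NCBIM37 sequence. RefSeq promoter entries (GRCm38.p6) were placed on it by exact match, which gave 14 starts for 9 of the 10 genes. The 10 genes, the other retinoid genes, the markers and the rule for genes like *Cyp26b1* were chosen with earlier results of these data known. Of the retinoid genes listed, 1 is not reported here. The text names all 10 genes, the listed retinoid genes whose H3K27me3 differs between Sertoli and pregranulosa cells, and *Stra8*. *Crabp2*, *Nr2f1*, *Nr2f2* and *Tgm2* fall outside this rule and were added after their values were seen. No test was run between populations, because each has 1 list per mark. Covered bases and classes were tested on simulated intervals. H3 was not analysed here by itself. Tools were bedtools 2.31.1 and Python 3.11.15 with matplotlib 3.10.9, SciPy 1.17.1 and NumPy 2.4.6.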

Additional observations from a re-analysis of the deposited data

Results flagged for a closer look

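The change in H3K27me3 cover of a gene body had opposite signs in the XY and XX pair of lists at *Aldh1a3* and *Aldh1a2*. Genes were flagged by sign alone, without a minimum size. At *Aldh1a3* it was 52.82 percentage points higher in Sertoli than in XY progenitor cells, and the value of pregranulosa minus XX progenitor cells was -0.81 points. At *Aldh1a2* the 2 values were 0.53 and -2.72 points. The values of -0.81 and 0.53 points are close to no change. Each population has 1 pooled list per mark, so the difference between the pairs was not tested.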

How the results depend on the processing

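Of 236 recomputed counts and shares, 231 stayed within 1.5 times the value given. Some of these could not have moved. Peaks read without joining mark the same windows at 1 bp of overlap, and joining regions within 5 kb cannot lower a count of marked genes. The limit is also wide for small counts, since 7 genes that became 9 or 5 stayed within it. When the start base itself had to lie inside a region, XY progenitor cells had 4 genes with H3K4me3 and 3 bivalent genes in place of 7 and 6. When at least 25% of the gene body had to be covered, pregranulosa cells had 5 genes with H3K27me3 on the body in place of 8. With RefSeq starts, an alternative chosen after seeing the data, *Rarb* joined the bivalent genes in Sertoli and pregranulosa cells, which gave 7. The 4 other retinoid genes with the Rarb-202 pattern became 3 (*Crabp2*, *Nr2f1* and *Nr2f2*) with the widest 75% of regions or with every list reduced to the shortest of its mark, and 3 (*Crabp2*, *Nr2f1* and *Tgm2*) when any annotated transcript start could count. The 3 other retinoid genes whose H3K27me3 differed between Sertoli and pregranulosa cells became 2, *Dhrs3* with *Tgm2* under both reductions and with *Fabp5* when the start base had to be covered. Of the 10 genes, 1 (*Cyp26c1*) in place of 0 differed in H3K4me3 between these populations with a window of 1 kb on either side, and again 1 with the widest 75% of regions. These recounts were also chosen after seeing the data. The values of *Cyp26b1*, *Aldh1a3*, Rarb-202 and *Aldh1a1* under wider joining or fewer regions, also chosen after seeing the data, stayed within 1.5 times, but wide regions cannot be lost by keeping the widest. No paired analysis was possible because each list joins both replicates, and for the same reason no replicate could be left out. Depth is unknown for the pregranulosa lists and lowest for the XY progenitor lists among the other 3 populations.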
